A study of Mus musculus with 20 samples.

Results

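Capicua targets and Ras feedback genes were followed in mouse brain through 8 genes, Etv1, Etv4, Etv5, Spry2, Spry4, Spred1, Dusp6 and Dusp4, on 20 arrays. Every probe set annotated to one of them was taken, whatever its values, out of 13319 genes that the probe annotation names and 22690 probe sets on the array. Of the 8 genes, 7 had a probe set, 13 in all, and Dusp4, a nuclear phosphatase of mitogen-activated protein kinases, is not analysed here. A probe set was kept for testing where 2 or more arrays had it above their own 40th percentile of intensity, a limit with a median of 681. This left 10 probe sets of 6 genes. Etv4 had none left, and its single probe set passed the limit on 0 arrays. Both Etv1 probe sets are annotated to a second locus as well, Gm5454, so their signal cannot be assigned to Etv1 alone.

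Capicua (Cic) is a DNA-binding repressor of the HMG-box family that works in a complex with ataxin-1 and its paralog. Signalling from receptor tyrosine kinases through Ras and ERK relieves the repression, and the genes released include ETS transcription factors of the PEA3 group (Etv1, Etv4, Etv5) and inhibitors that damp the same pathway. Among those inhibitors, Sprouty and Spred proteins act on the way to Ras and Raf, and Dusp phosphatases remove the activating phosphates of ERK. In the brain, Etv1 is known for its expression in cerebellar granule neurons and in deep-layer pyramidal neurons of the cortex.

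The promoters of 5 of the genes, in 7 windows of 250 bases before to 50 bases after an annotated start, were searched for 8-base versions of the Capicua site. The windows are those of RefSeq on GRCm38.p6, while the deposited files name no build. The 4 octamers TGAATGAA, TGAATGGA, TCAATGAA and TCAATGGA were looked for on both strands, and no one of them overlaps another in the matches found. Of the 7 windows, 2 held a match, that of Spry2 with 1 and that of Dusp6 with 2. Of the 32851 promoter windows in the table, 3.84% held at least 1 match and 0.183% at least 2. Versions that end in G, namely TGAATGAG, TGAATGGG, TCAATGAG and TCAATGGG, were added after the letters had been seen. With them, 7.02% of all windows held at least 1 match and 0.0791% at least 3, and 1 of the 2 Etv5 windows held 3 copies of TGAATGGG. Etv1, with 2 windows, the other Etv5 window and Spred1 held no match to any of the 8. Etv4, Spry4 and Dusp4 were not searched. The 3 windows with a match are shown because they hold the letters searched for and belong to genes whose levels follow. They are written 5′ to 3′ on the strand of the gene, with the matches in capitals.
Etv5, chr16:22438319-22438618, minus strand: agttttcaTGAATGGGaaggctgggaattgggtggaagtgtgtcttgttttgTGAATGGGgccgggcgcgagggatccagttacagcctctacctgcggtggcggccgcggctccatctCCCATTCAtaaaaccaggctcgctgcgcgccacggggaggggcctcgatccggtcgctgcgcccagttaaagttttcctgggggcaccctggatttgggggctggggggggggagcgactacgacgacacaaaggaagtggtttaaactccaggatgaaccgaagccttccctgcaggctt
Dusp6, chr10:99262981-99263280, plus strand: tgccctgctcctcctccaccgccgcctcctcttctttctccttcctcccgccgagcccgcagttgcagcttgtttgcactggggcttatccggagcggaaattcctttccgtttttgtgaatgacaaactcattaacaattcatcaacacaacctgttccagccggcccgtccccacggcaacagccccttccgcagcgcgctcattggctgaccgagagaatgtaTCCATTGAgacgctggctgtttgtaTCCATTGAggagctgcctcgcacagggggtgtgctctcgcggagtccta
Spry2, chr14:105896770-105897069, minus strand: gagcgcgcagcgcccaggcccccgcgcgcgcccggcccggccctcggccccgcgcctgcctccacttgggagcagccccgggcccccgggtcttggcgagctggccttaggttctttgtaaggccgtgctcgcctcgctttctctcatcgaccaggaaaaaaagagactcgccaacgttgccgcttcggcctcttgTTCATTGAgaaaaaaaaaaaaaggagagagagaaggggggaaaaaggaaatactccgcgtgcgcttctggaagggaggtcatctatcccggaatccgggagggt
Counted from the start, the Etv5 matches lie at -242 to -235, -198 to -191 and, on the opposite strand, -131 to -124. Those of Dusp6 lie on the opposite strand at -24 to -17 and 2 to 9, and that of Spry2 on the opposite strand at -54 to -47. A match is a run of letters and not evidence of binding.

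The study profiled total RNA from knock-in and wild-type mice with single-colour arrays, in 2 brain regions and at 2 ages. The 8 groups are knock-in and wild-type cerebellum at 4 weeks, knock-in and wild-type cerebellum at 11 weeks, knock-in and wild-type forebrain at 4 weeks, and knock-in and wild-type forebrain at 11 weeks, with 3 arrays each at 4 weeks and 2 each at 11 weeks. Which allele was knocked in is not named in the labels, and neither are strain and sex. They give the later age as 11 weeks in the descriptions and 12 weeks in the titles. Separate mice are stated for no arrays, so the p-values rest on a spread between samples that may be technical only.

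For 7 of the 10 arrays grouped as forebrain, the source field names cerebellum, and for knock-in forebrain replicate 3 at 4 weeks the description does so too; the region was taken from the code in each title. The markers separated the codes. Gabra6, a GABA-A receptor subunit of granule neurons, had intensities of at least 25360 on the 10 cerebellum arrays and at most 438 on the 10 forebrain arrays by both of its probe sets. Bcl11b, a cortical and striatal transcription factor, had 13.8 to 31.9 in cerebellum and 3472 to 6182 in forebrain. Each array had been scaled to a 2% trimmed mean of 2500.59 to 2500.75, and the GAPDH 3′ to 5′ ratio, a sign of RNA quality, ran from 0.744 to 0.903. The lowest ratio belonged to wild-type forebrain replicate 1 at 4 weeks, which also had the highest actin ratio, 1.23, against a lowest of 0.934. Capicua itself was well measured, with an intensity of 8914 to 13781 and all 20 arrays above the limit. The Atxn1 probe set stayed below the limit on every array, at 35.9 to 110, and so gives no check of the labels.

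Between knock-in and wild type, 3 of the 10 probe sets passed an adjusted p of 0.05 in the mean over the 4 region and age groups, against 23.7% of all kept probe sets. Etv5 was higher in knock-in brain by one of its probe sets, and Etv1 and Spred1 were lower by one each. Sprouty genes and Dusp6 did not pass. By region, Etv5 passed in cerebellum, and both Etv1 probe sets and 1 of Spred1 passed in forebrain. Differences are knock-in minus wild type on the log2(intensity + 16) scale, where dim probe sets change by less than on their own scale, and adjusted p-values come from one limma fit with Benjamini-Hochberg adjustment over 15627 probe sets. In whole tissue, fewer cells of a type and less RNA per cell cannot be told apart.

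**Figure D1:**
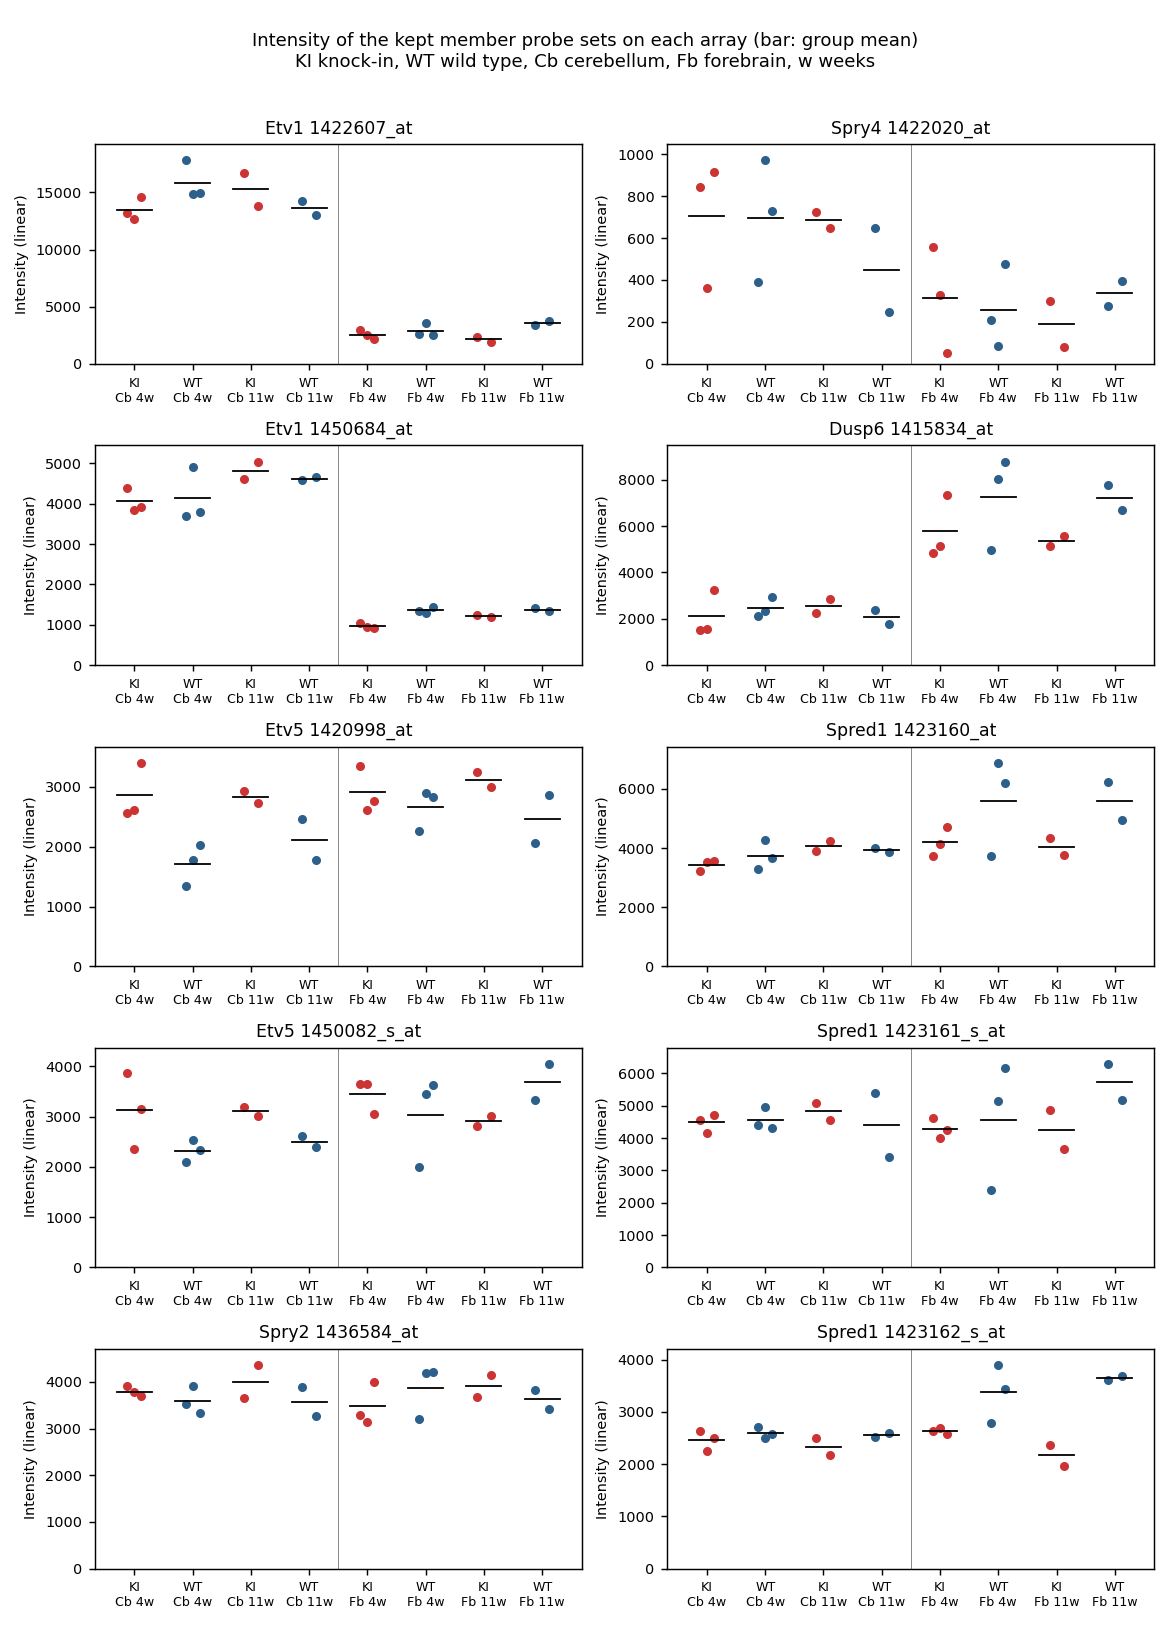
Linear intensity (y axis, from 0) of the 10 kept probe sets on each of the 20 arrays, with knock-in groups in red left of their wild-type groups in blue, cerebellum left of the vertical line and forebrain right of it; the short bar is the group mean. Etv1 is high in cerebellum and Dusp6 in forebrain, and Etv5 1420998_at has every knock-in cerebellum array, 2567 to 3404, above every wild-type one, 1343 to 2468.

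Etv5, an ETS activator, was measured by 1420998_at and 1450082_s_at. At 4 weeks, 1420998_at had intensities of 2567, 2616 and 3404 in knock-in cerebellum, against 1343, 1776 and 2024 in wild-type cerebellum. At 11 weeks it had 2929 and 2740 in knock-in cerebellum, against 2468 and 1770 in wild-type cerebellum. All 5 knock-in arrays lay above all 5 wild-type arrays. Averaged over ages, cerebellum had 2851 ± 339 in knock-in and 1876 ± 412 in wild type (SD, n = 5 each), a difference of 0.59 ± 0.15 (SE, adjusted p = 0.039, limma). This was 1 of 10 members called in that comparison, against 3.35% of all kept probe sets. Within single ages the cerebellar difference was 0.74 ± 0.18 at 4 weeks (adjusted p = 0.109, limma) and 0.44 ± 0.22 at 11 weeks (adjusted p = 0.383), and neither passed.

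In forebrain the same Etv5 probe set had 3352, 2616 and 2773 in knock-in at 4 weeks, against 2258, 2903 and 2826 in wild type, so the groups overlapped. The 11-week arrays had 3247 and 3003 in knock-in forebrain, against 2065 and 2872 in wild-type forebrain, with both knock-in arrays on top. The forebrain difference, 0.24 ± 0.15, did not pass (adjusted p = 0.276, limma). The mean over all 4 region and age groups was 0.42 ± 0.10 (adjusted p = 0.0103), or 1.33-fold, and it passed with each of the 20 arrays left out in turn. The cerebellar call was less firm. It passed in 3 of 10 fits that left out 1 array of the compared groups, with adjusted p-values of 0.0392 to 0.151.

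The second Etv5 probe set, 1450082_s_at, moved less. It had 3869, 2358 and 3162 in knock-in cerebellum at 4 weeks, against 2095, 2539 and 2337 in wild-type cerebellum. At 11 weeks it had 3189 and 3018 in knock-in cerebellum, against 2608 and 2402 in wild-type cerebellum. The groups overlapped at 4 weeks through 1 knock-in array and not at 11 weeks, and the cerebellar mean difference, 0.36 ± 0.16, did not pass (adjusted p = 0.212, limma). In forebrain it had 3657, 3646 and 3047 in knock-in at 4 weeks, against 2006, 3455 and 3629 in wild type. At 11 weeks the order was turned round, with 2820 and 3007 in knock-in forebrain, against 3324 and 4047 in wild-type forebrain. Its mean over the 4 groups was 0.15 ± 0.11 (adjusted p = 0.349). The gap between both Etv5 probe sets in their genotype difference, 0.26, had p = 0.0608 in a two-sided exact permutation test of genotype within region and age, and 0.152 adjusted over the 5 pairs of probe sets of the same gene.

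Etv1, the ETS factor with the largest regional contrast here, was lower in knock-in forebrain by both probe sets. Probe set 1450684_at had 1042, 938 and 924 in knock-in forebrain at 4 weeks, against 1343, 1289 and 1439 in wild-type forebrain. Its 11-week values were 1241 and 1191 in knock-in forebrain, against 1409 and 1345 in wild-type forebrain. No knock-in forebrain array reached the lowest wild-type one. The forebrain means were 1067 ± 144 in knock-in and 1365 ± 59.0 in wild type (SD, n = 5 each), a difference of -0.33 ± 0.09 (adjusted p = 0.0239, limma).

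Probe set 1422607_at had 2954, 2490 and 2150 in knock-in forebrain at 4 weeks, against 2615, 3602 and 2548 in wild-type forebrain. At 11 weeks it had 2371 and 1911 in knock-in forebrain, against 3379 and 3767 in wild-type forebrain. The ages differed in that the groups overlapped at 4 weeks and were apart at 11 weeks. The forebrain difference was -0.47 ± 0.12 (adjusted p = 0.0217, limma), or 1.39-fold lower in knock-in, and it was called in 7 of 10 fits with 1 array left out, as was that of 1450684_at in 8 of 10. At single ages, 1450684_at passed at 4 weeks with -0.48 ± 0.11 (adjusted p = 0.0197), and 1422607_at had -0.74 ± 0.19 at 11 weeks (adjusted p = 0.0817).

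In cerebellum neither Etv1 probe set passed. Probe set 1422607_at had 13196, 12638 and 14624 in knock-in at 4 weeks, against 17800, 14862 and 14915 in wild type. For 11 weeks the values were 16726 and 13836 in knock-in cerebellum, against 14293 and 12989 in wild-type cerebellum. Knock-in lay lowest at 4 weeks and overlapped wild type at 11 weeks, and the cerebellar mean difference was -0.04 ± 0.12 (adjusted p = 0.901, limma). Probe set 1450684_at had 3846 to 5041 in knock-in cerebellum and 3691 to 4909 in wild-type cerebellum. Over all 4 groups, 1422607_at was called at -0.25 ± 0.09 (adjusted p = 0.044), but only 6 of 20 fits with 1 array left out kept that call (adjusted p = 0.0296 to 0.113), and it was lost with no filter (adjusted p = 0.0662) and with quantile normalization (adjusted p = 0.0557). The other probe set had -0.15 ± 0.06 (adjusted p = 0.0815).

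Etv4, the remaining PEA3 factor, gave 115 to 203 in knock-in brain and 68.7 to 449 in wild-type brain over both regions. These intensities lie under the limit on all 20 arrays, and no difference was read from them.

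Spred1, which binds Ras-pathway proteins and brings neurofibromin to the membrane, was called most often by probe set 1423162_s_at. That probe set had 2632, 2698 and 2578 in knock-in forebrain at 4 weeks, against 2782, 3894 and 3442 in wild-type forebrain. At 11 weeks it had 2374 and 1962 in knock-in forebrain, against 3607 and 3681 in wild-type forebrain. All 5 knock-in arrays lay below all 5 wild-type arrays. The forebrain means were 2449 ± 298 in knock-in and 3481 ± 423 in wild type (SD, n = 5 each), a difference of -0.55 ± 0.09 (adjusted p = 0.00324, limma), or 1.46-fold lower in knock-in. It was called in all 10 fits that left out 1 forebrain array. With the 2 Etv1 probe sets, this made 3 of 10 members called in forebrain, all lower in knock-in, against 13.5% of all kept probe sets.

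In cerebellum 1423162_s_at had 2638, 2256 and 2501 in knock-in at 4 weeks, against 2703, 2501 and 2584 in wild type. The later age gave 2497 and 2175 in knock-in cerebellum, against 2521 and 2604 in wild-type cerebellum. Knock-in was lower on both arrays at 11 weeks, yet the cerebellar mean difference was small, -0.11 ± 0.09 (adjusted p = 0.553, limma). The mean over the 4 groups, -0.33 ± 0.07 (adjusted p = 0.00386), passed with each of the 20 arrays left out. At 11 weeks alone, the forebrain difference of -0.75 ± 0.15 passed (adjusted p = 0.0285), but with any of the 4 arrays left out it did not (0.0501 to 0.251). At 4 weeks it was -0.34 ± 0.12 (adjusted p = 0.0893).

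The other Spred1 probe sets spread more widely. Probe set 1423160_at had 3742, 4150 and 4727 in knock-in forebrain at 4 weeks, against 3728, 6881 and 6207 in wild-type forebrain. At 11 weeks it had 4324 and 3772 in knock-in forebrain, against 6247 and 4960 in wild-type forebrain. A single wild-type array, replicate 1 at 4 weeks, lay below the lowest knock-in array, while the other 4 wild-type arrays lay above all knock-in ones, and the forebrain difference was -0.42 ± 0.15 (adjusted p = 0.0683, limma). Probe set 1423161_s_at had 4614, 4010 and 4251 in knock-in forebrain at 4 weeks, against 2384, 5160 and 6171 in wild-type forebrain. In the 11-week groups it had 4870 and 3653 in knock-in forebrain, against 6288 and 5178 in wild-type forebrain. Its forebrain difference was -0.21 ± 0.21 (adjusted p = 0.531). The same wild-type array was again the lowest of all. In cerebellum, 1423160_at had 3215 to 4228 in knock-in and 3294 to 4272 in wild type, and 1423161_s_at had 4171 to 5089 in knock-in and 3405 to 5396 in wild type. Without wild-type forebrain replicate 1 at 4 weeks, 1423160_at passed in the mean over the 4 groups (-0.29, adjusted p = 0.0105), and 3 members instead of 1 passed in forebrain at 4 weeks, namely 1450684_at of Etv1 and 1423160_at and 1423162_s_at of Spred1. In that mean, 1423160_at was called in 1 of 20 fits with 1 array left out, that one alone, and in 0 of 9 settings of other processing. Between pairs of Spred1 probe sets, the largest gap in genotype difference was 0.26, between 1423161_s_at and 1423162_s_at (exact permutation p = 0.0414, 0.152 adjusted over 5 pairs).

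Spry2 and Spry4, membrane-associated inhibitors of growth factor signalling, did not pass. Probe set 1436584_at of Spry2 had 3902, 3781, 3691, 3656 and 4355 in knock-in cerebellum over both ages, against 3525, 3918, 3333, 3886 and 3258 in wild-type cerebellum. In forebrain it had 3290, 3143, 3990, 3665 and 4144 in knock-in, against 3212, 4180, 4200, 3835 and 3416 in wild type. The groups overlapped in both regions, and the mean difference was 0.05 ± 0.07 with a 95% interval of -0.11 to 0.21 (adjusted p = 0.655, limma). The other Spry2 probe set, 1421656_at, passed the limit on 1 array, at 136 to 814 in knock-in brain and 131 to 534 in wild-type brain. Spry4 was dim. Its kept probe set 1422020_at had 363 to 915 in knock-in cerebellum and 247 to 970 in wild-type cerebellum, and passed the limit on 6 arrays, all of cerebellum. In forebrain it had 54.1 to 557 in knock-in and 84.1 to 477 in wild type. Its mean difference, -0.03 ± 0.40, has an interval of -0.89 to 0.83, too wide to place it (adjusted p = 0.965). Probe set 1422021_at, not kept, had 118 to 691 in knock-in and 282 to 659 in wild type.

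Dusp6, the cytoplasmic phosphatase specific to ERK, differed more between regions than between genotypes. It had 1527, 1571 and 3224 in knock-in cerebellum at 4 weeks, against 2122, 2326 and 2920 in wild-type cerebellum. The 11-week arrays showed 2240 and 2832 in knock-in cerebellum, against 2362 and 1755 in wild-type cerebellum. At 4 weeks, replicate 3 was the highest array and replicate 1 the lowest in both genotypes and both regions. The cerebellar groups overlapped at both ages. In forebrain Dusp6 had 4851, 5129 and 7355 in knock-in at 4 weeks, against 4977, 8014 and 8781 in wild type. The 11-week arrays showed 5139 and 5559 in knock-in forebrain, against 7764 and 6683 in wild-type forebrain, without overlap. The genotype difference was -0.37 ± 0.22 in forebrain (adjusted p = 0.265, limma) and 0.00 ± 0.22 in cerebellum (adjusted p = 0.995), and neither passed. Its interval in forebrain, -0.83 to 0.09, includes falls larger than that of any called member.

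**Figure D2:**
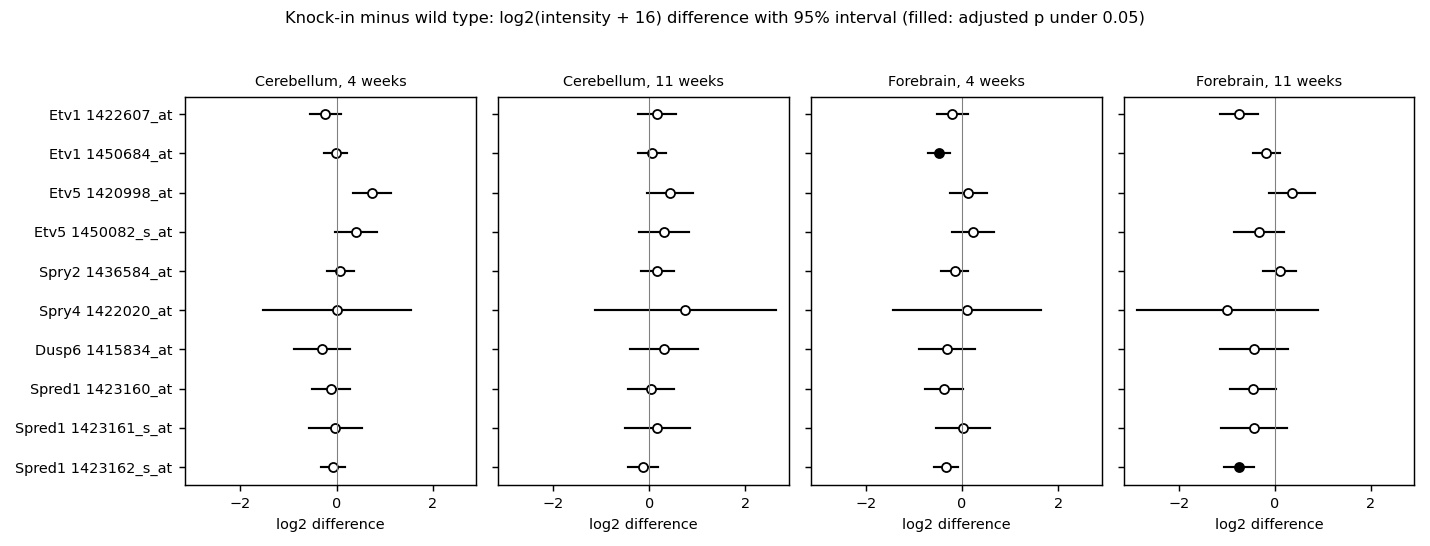
Knock-in minus wild type for the 10 kept probe sets (rows) in the 4 region and age groups (panels), as log2(intensity + 16) differences on the x axis with 95% intervals; filled points have an adjusted p under 0.05. The 2 filled points are Etv1 1450684_at in forebrain at 4 weeks (-0.48) and Spred1 1423162_s_at in forebrain at 11 weeks (-0.75), and Spry4 has the widest intervals.

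Within single groups few members were called. In cerebellum at 4 weeks limma called 0 of 10 members, with 1 at an unadjusted p under 0.05, against 0.0512% of all kept probe sets called. In cerebellum at 11 weeks it called 0 of 10, with 0 at an unadjusted p under 0.05, against 0.346% of all kept probe sets called. Forebrain had 1 of 10 called at 4 weeks, against 7.37% of all kept probe sets, and 1 of 10 at 11 weeks, against 0.864% of all kept probe sets. At 4 weeks, 4 of 10 member differences were above 0 in each region. Of all kept probe sets, 55.4% were above 0 in cerebellum and 54.8% in forebrain at that age. At 11 weeks 9 of 10 differences were above 0 in cerebellum, and 8 of 10 were below 0 in forebrain. Of all kept probe sets, 52.9% were above 0 in cerebellum and 55.3% in forebrain at 11 weeks. The members' median difference was 0.05 in cerebellum and -0.35 in forebrain over both ages, where all kept probe sets had medians of 0.02 and 0.04. Spry4 1422020_at passed the filter on cerebellar arrays alone, and without it the members' medians were 0.02 in cerebellum and -0.33 in forebrain.

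The genotype difference was larger, in the signed sense, in cerebellum than in forebrain for all 10 probe sets, where 48.2% of all kept probe sets had that sign. The members' median for cerebellum minus forebrain was 0.38, against -0.01 over all kept probe sets. Spry4 1422020_at was under the filter's limit on all forebrain arrays, so its regional difference rests on values under that limit. Without it, 9 of 9 probe sets had that sign, with a median of 0.37. No single member passed this test of the difference between regions: limma called 0 of 10, with 3 at an unadjusted p under 0.05, against 0.282% of all kept probe sets called. The smallest adjusted p was 0.259, for Spred1 1423162_s_at, at 0.44 ± 0.13. Etv1 followed with 0.43 ± 0.17 for 1422607_at and 0.35 ± 0.12 for 1450684_at. The 10 probe sets are of 6 genes and share their arrays, so they are not 10 separate observations. Calls in 1 region and not in the other are therefore not shown to differ between regions.

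**Figure D3:**
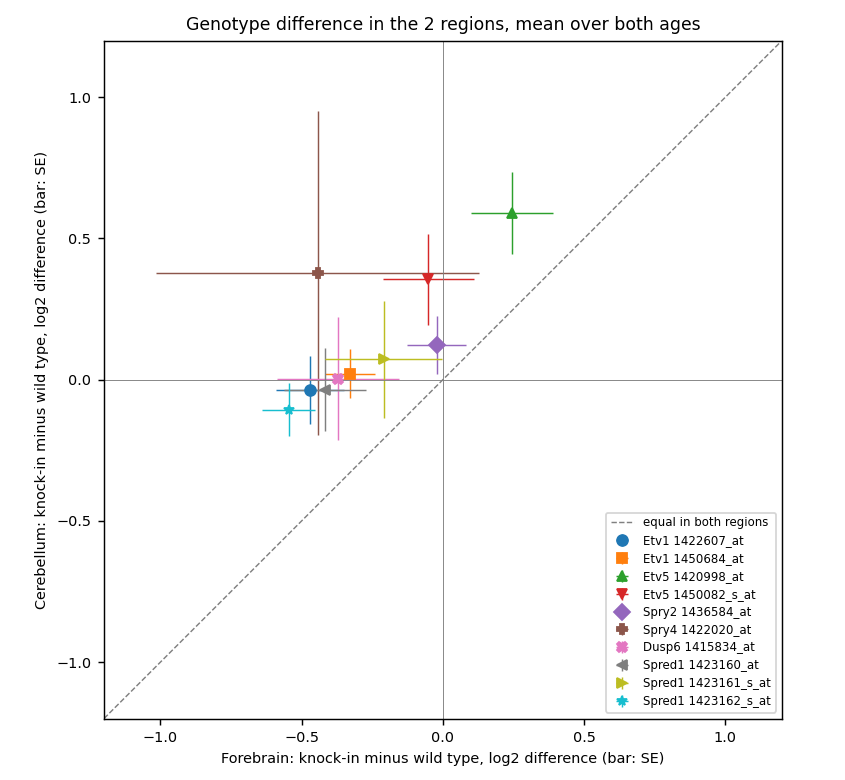
Genotype difference (knock-in minus wild type, log2, mean over both ages, bars SE) of the 10 kept probe sets in cerebellum (y axis) against forebrain (x axis); the dashed line marks equal differences. All 10 points lie above the line, that of Spry4 with forebrain values under the filter's limit, Etv5 1420998_at at 0.59 in cerebellum and 0.24 in forebrain, and Spred1 1423162_s_at at -0.11 in cerebellum and -0.55 in forebrain.

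Cell type markers also moved with the groups. Of 10 marker lists, knock-in and wild-type arrays did not overlap in summed intensity for 4 in cerebellum at 4 weeks and 6 at 11 weeks. In forebrain they did not overlap for 2 lists at 4 weeks and 7 at 11 weeks. Groups of 2 arrays separate by chance more often than groups of 3, so the higher counts at 11 weeks are not read as larger changes. The sum of 7 of 9 listed Purkinje cell markers was lower in knock-in mice in each of the 4 groups, with 286245 to 307162 in knock-in cerebellum at 4 weeks, against 319368 to 322537 in wild type. At 11 weeks it was 255839 to 300414 in knock-in cerebellum, against 316714 to 325961 in wild type. Over ages, 0 of these 7 markers had a difference above 0 in cerebellum, but 3 of 7 did in forebrain. Among those 3, Slc1a6 was called higher there at 0.49 ± 0.10, while Rgs8 and Pcp4 were called lower. Pcp2 was at most 579 in forebrain, so the forebrain sum rests on other genes. In cerebellum, where Etv1 is known from granule neurons, 7 of 8 listed granule markers summed to 182300 to 193102 in knock-in and 202409 to 209454 in wild type at 4 weeks, and to 173837 to 175817 in knock-in and 186970 to 188075 in wild type at 11 weeks. Of these 7 granule markers, 2 had a cerebellar difference above 0 at 4 weeks and 3 at 11 weeks, and 0 were called at either age. The sum of choroid plexus markers in cerebellum was lower in knock-in at 4 weeks and higher at 11 weeks. Yet at 11 weeks only 1 of its 4 tested markers had a difference above 0, with a median of -0.13. The cerebellar sum of microglia markers was higher in knock-in at 4 weeks. Cerebellum at 11 weeks also had lower knock-in sums for astrocytes and oligodendrocytes and a higher one for endothelium. Of 10 tested astrocyte markers, 4 had a difference above 0 in cerebellum at 11 weeks. In forebrain at 4 weeks microglia markers were higher in knock-in, and the other 8 lists overlapped. In forebrain at 11 weeks, where 8 of 10 member differences were below 0, 10 of 11 listed astrocyte markers summed to 98006 to 100154 in knock-in and 123493 to 123670 in wild type. The sum of 6 of 8 listed pyramidal neuron markers there was 56622 to 66923 in knock-in and 74205 to 75914 in wild type. The sums of striatal neuron, oligodendrocyte precursor and microglia markers were also lower there, and that of endothelial ones was higher. The striatal sum held only 2 of 6 listed markers, Ppp1r1b and Penk. Both were higher in wild-type cerebellum than in wild-type forebrain, by 1.28 and 0.68, so this sum is no measure of striatal neurons here. Of 6 tested precursor markers, 3 had a difference above 0 in forebrain at 11 weeks. Their part in the members' differences was not tested. None of Pcp2, Gabra6, Camk2a and Bcl11b was listed at 0 on any array.

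Age made no call among the members. The change of the genotype difference with age, 11 minus 4 weeks, had 0 of 10 members called by limma and 0 at an unadjusted p under 0.05; over all kept probe sets it had 0 called, or 0%, and 1173 at an unadjusted p under 0.05. In wild-type cerebellum, 11 against 4 weeks gave 0 of 10 members called and 0 at an unadjusted p under 0.05, against 0.198% of all kept probe sets called. In wild-type forebrain it gave 0 of 10 and 0, against 0.0064% of all kept probe sets. The smallest member adjusted p-values for age were 0.726 in cerebellum and 0.844 in forebrain.

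Region gave the largest differences of the set. In wild type, 7 of 10 members differed between cerebellum and forebrain, 2 higher and 5 lower in cerebellum, against 47.9% of all kept probe sets. Etv1 1422607_at had 14972 ± 1761 in wild-type cerebellum and 3182 ± 566 in wild-type forebrain (SD, n = 5 each), a log2 difference of 2.19 ± 0.12 (adjusted p = 5.24e-10, limma), or 4.56-fold. Its partner 1450684_at had 4326 ± 551 in cerebellum and 1365 ± 59.0 in forebrain, or 3.16-fold. The knock-in regions stood apart in the same direction. In them, 1422607_at had 14204 ± 1592 in knock-in cerebellum and 2375 ± 392 in knock-in forebrain. Dusp6 ran the other way, with 2297 ± 424 in wild-type cerebellum and 7244 ± 1473 in wild-type forebrain, a difference of -1.67 ± 0.22 (adjusted p = 9.67e-06), or 3.19-fold lower in cerebellum. For these 3 probe sets the cerebellum arrays did not overlap the forebrain arrays in either genotype. The share of all kept probe sets that separate in this way was not counted.

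Spred1 and Etv5 were lower in wild-type cerebellum by less. Spred1 1423162_s_at had 2583 ± 79.6 in cerebellum and 3481 ± 423 in forebrain, and its difference was -0.43 ± 0.09 (adjusted p = 0.00123, limma). Spred1 1423160_at had -0.52 ± 0.15 (adjusted p = 0.00776). Both Etv5 probe sets passed, with -0.43 ± 0.15 for 1420998_at (adjusted p = 0.0226) and -0.44 ± 0.16 for 1450082_s_at (adjusted p = 0.0322). Those 2 calls were the less firm ones, kept in 7 and 4 of 10 fits with 1 array left out. In knock-in mice Etv5 1420998_at had 2851 ± 339 in cerebellum and 2998 ± 310 in forebrain, against 1876 ± 412 in wild-type cerebellum and 2585 ± 393 in wild-type forebrain. Spred1 1423161_s_at, Spry2 and Spry4 did not pass, with -0.15 ± 0.21, -0.06 ± 0.10 and 0.92 ± 0.57, the last against forebrain values under the filter's limit.

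**Figure D4:**
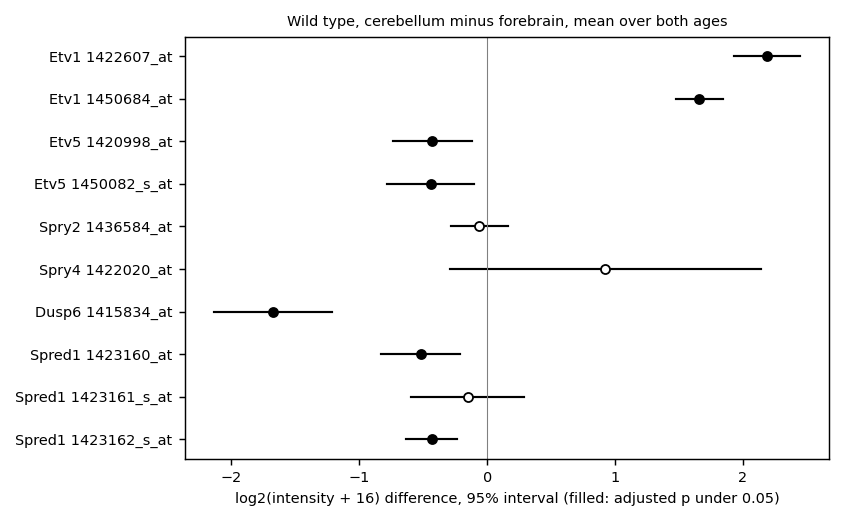
Cerebellum minus forebrain in wild type for the 10 kept probe sets (rows), mean over both ages, as log2(intensity + 16) differences on the x axis with 95% intervals; filled points have an adjusted p under 0.05. Both Etv1 probe sets stand at the right (2.19 and 1.66) and Dusp6 at the left (-1.67).

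The members did not share one pattern over the groups. Over the 8 group means, centred within each region, Etv1 1422607_at ran with Dusp6 (r = 0.88) and with the 3 Spred1 probe sets (r = 0.81 to 0.89), while Etv5 1420998_at had negative values with each of them (r = -0.50 with Etv1 1422607_at, -0.40 with Dusp6, and -0.54 to -0.18 with the Spred1 probe sets). Etv5 1450082_s_at had positive values with the same probe sets (r = 0.29, 0.11, and 0.13 to 0.58). Probe sets of the same gene reached 0.46 for Etv1, 0.57 for Etv5 and 0.57 to 0.84 for Spred1. These are descriptions over 8 points that share their arrays and scaling. Among genes outside the set, the closest to each gene's brightest probe set were Celf2 (r = 0.979), Ier5 and Gpm6b for Etv1, Psme3 (0.982), Prkd3 and Brk1 for Etv5, and Tmem70 (0.996), Chst12 and Shmt2 for Spry2. For Spry4 they were Cmc2 (0.968), Atg4d and Cdk5r1, for Dusp6 Bzw2 (0.975), Tcf25 and Bud31, and for Spred1 Lrrtm2 (0.951), Rwdd4a and Mansc1. They head a ranking of all kept probe sets with a single gene name, so a high value is what chose them.

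The rest of the pathway was taken from 4 lists, with 1 probe set a gene, and read against 24.7% of all genes called in the mean over the 4 groups. Of 10 genes listed as Capicua, ataxin-1 and their partners, 5 were tested, Capicua itself among them, and 1 was called. This was Rbm17, a splicing factor that binds ataxin-1, which fell by 0.32 ± 0.07 on the log2 scale (adjusted p = 0.00629, limma). The median of the 5 tested genes was -0.03. Of other feedback and ERK-induced genes, 37 of 45 were tested, 4 rose and 3 fell. Bhlhe40, a transcriptional repressor, had -0.59 ± 0.13 and Dusp1, a nuclear phosphatase of mitogen-activated protein kinases, -0.41 ± 0.09. Dusp2, a related phosphatase, had 0.36 ± 0.08 and Fosl1, a subunit of AP-1, 1.58 ± 0.35. The list therefore held calls in both directions, and its median was 0.03, against 0.04 over all genes.

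From the cascade between Ras and ERK, 27 of 38 genes were tested, 1 rose and 5 fell, with a median of -0.04. Rasgrf2, a calcium-responsive exchange factor for Ras, fell by 1.25 ± 0.18 on the log2 scale (adjusted p = 5.33e-04, limma), and its forebrain difference was -2.22 ± 0.25. The fall was mainly in forebrain: cerebellum minus forebrain, its genotype difference was 1.94 ± 0.36 (adjusted p = 0.0365, limma). Rasgrp1, another exchange factor, had -0.45 ± 0.11 and Ptpn11, a phosphatase that relays receptor signals to Ras, -0.37 ± 0.09. Nf1, the neurofibromin that Spred1 recruits, had 0.36 ± 0.10. Of receptors and ligands, 28 of 40 were tested, 2 rose and 2 fell, with a median of 0.02. Egfr, the epidermal growth factor receptor, had 0.54 ± 0.10 and its ligand Tgfa 0.32 ± 0.09, whereas the ligand Hbegf had -0.22 ± 0.08 and Fgf12, an intracellular member of the fibroblast growth factor family, -0.38 ± 0.08. In forebrain, 14.3% of all genes were called. There, the list of Capicua, ataxin-1 and partners had 0 higher and 1 lower, and the feedback genes 2 higher and 4 lower. The cascade had 1 higher and 3 lower, and the receptors and ligands 1 higher and 2 lower.

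**Figure D5:**
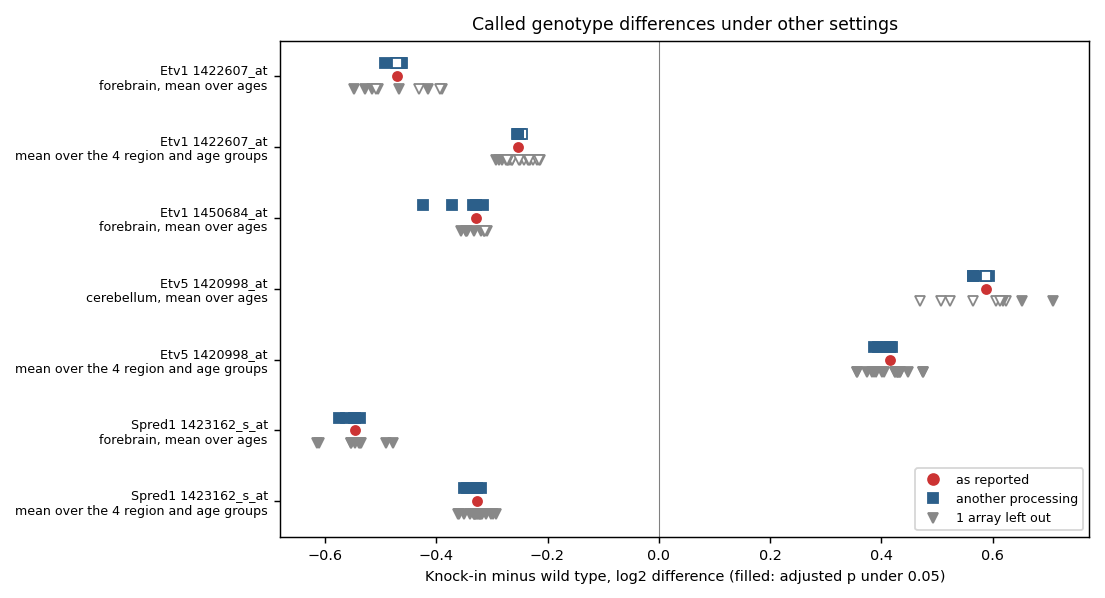
Called genotype differences (knock-in minus wild type, log2, x axis) of Etv5, Spred1 and Etv1 as reported (circles), under other processing (squares) and with 1 array left out (triangles); filled symbols have an adjusted p under 0.05. No symbol crosses 0, and Etv5 1420998_at and Spred1 1423162_s_at stay filled throughout in the mean over the 4 region and age groups.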

How the data were processed

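The 20 arrays were grouped by genotype, region and age from the codes in their titles. The authors deposited 1 intensity per probe set and array on a linear scale, scaled to a common trimmed mean; their software and genome build are not named in labels or files used here. Controls aside, 20380 of 22626 probe sets have 1 gene symbol in the annotation used, 691 several and 1555 none. Intensities were tested as log2(intensity + 16), with 1 mean per group and the spread shared by all arrays, in limma 3.58.1 (lmFit and eBayes; R 4.3.3; 12 residual and 3.45 prior degrees of freedom), called at an adjusted p under 0.05. The test was tried on simulated data first. Array medians of kept probe sets spanned 0.15 log2 units, under the limit of 0.5 set for renormalizing. The number of arrays limits the precision. All 13 member probe sets are named, each gene with the 3 genes most like its brightest kept probe set, and of each pathway list at most 4 called genes by p. The members and lists were chosen with earlier results of these data known. Same-numbered knock-in and wild-type arrays were not paired: their deviations from group means correlated at -0.10 to 0.05 over 10 pairs, of which 8 give separate values, and those of cerebellar and forebrain arrays at -0.02 to 0.11. Alternatives were other offsets, filters, normalizations and spread models, arrays of the compared groups alone, 1 probe set a gene, array blocks, and each array left out.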

Additional observations from a re-analysis of the deposited data

Results flagged for a closer look

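Etv5 1450082_s_at differed in direction between regions at 11 weeks: both knock-in arrays lay above both wild-type arrays in cerebellum and below them in forebrain. The genotype difference was 0.64 higher in cerebellum on the log2 scale, and it did not pass (adjusted p = 0.915, limma). The contrast at a single age was added after the data had been seen.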

How the results depend on the processing

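The mean over the 4 groups had 3 members called, and 2 to 4 with 1 array left out. With 1 probe set a gene it had 1, since the brightest probe sets of Etv5 and Spred1 are not the called ones. The same setting left 0 in forebrain at 4 weeks, 0 in forebrain at 11 weeks, 0 in cerebellum over ages, 1 in forebrain over ages and 3 of the 7 between regions in wild type. A fit to only the compared groups, which leaves fewer arrays to estimate the spread, called 0 in forebrain at 4 weeks, 0 in forebrain at 11 weeks and 0 in cerebellum over ages. Without a filter, which adds probe sets to the adjustment, 0 were called in forebrain at 11 weeks and 0 in cerebellum over ages. An intensity trend gave 2 in forebrain at 11 weeks. The replicate block gave 0 there, with -0.75 and an adjusted p of 0.0513 for Spred1 1423162_s_at, and under it Etv5 1450082_s_at between regions in wild type was also no longer called (0.0533). Etv1 1422607_at in the mean over the 4 groups lost its call in 5 of 10 settings, with adjusted p-values of 0.0662 without a filter, 0.0557 with quantile and 0.0522 with cyclic loess normalization, 0.0521 with the replicate block and 0.053 with same-numbered arrays as a random block across regions. In forebrain over ages it lost its call in the fit to only the compared groups (0.0658). The block could not be estimated for age in wild type. Deviations of same-numbered arrays correlated at -0.10 to 0.05 between genotypes and at -0.02 to 0.11 between regions (median 0.06, positive in 6 of 8). Each kind has 10 pairs but 8 separate values, since the 2 pairs of an 11-week group always give the same value.

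With 1 array left out, forebrain at 4 weeks had 0 to 3 members called (1 with all arrays), forebrain at 11 weeks 0 to 0, cerebellum over ages 0 to 1, forebrain over ages 1 to 4, and wild type between regions 5 to 8. Without knock-in forebrain replicate 3 at 4 weeks, whose description names cerebellum, forebrain over ages kept its 3 calls, Etv1 1422607_at in the mean over the 4 groups had an adjusted p of 0.0665, and Etv1 1450684_at in forebrain at 4 weeks 0.0519. For Spry4 1422020_at the mean difference of -0.03 was 0.0063 with an offset of 64, -0.20 with quantile normalization, -0.26 with cyclic loess normalization and -0.24 to 0.19 with 1 array left out. For Spred1 1423161_s_at the -0.07 became -0.17 to 0.014 with 1 array left out. The causes were not tested.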
